A study of Mus musculus with 68 samples.

Results

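The comparison set 3 kidney libraries taken 6 h after a vehicle injection against 3 kidney libraries taken 2 h after the same injection, 6 of the 68 libraries of the study. They were chosen by organ, treatment and time from the sample labels, and no measured value entered the choice. All groups were wild-type C57BL/6J female mice aged 10 weeks. Vehicle mice received 50 to 60 µL of phosphate-buffered saline into the retro-orbital sinus under isoflurane, so both groups compared here had been anaesthetised and injected. Egf mice received 1 mg/kg of epidermal growth factor in the same way, with 4 kidney libraries at 2 h and 4 at 6 h. A further 3 kidney libraries came from untreated mice. The mice had free access to food under a cycle of 12 h of light and 12 h of dark. The clock time of injection and of organ collection is not given in the sources used here, so time since the injection and time of day cannot be told apart in this comparison. The labels do not say which organs came from the same mouse or how mice were caged. The p values measure the spread between libraries, estimated over all 17 kidney libraries and not over the 6 compared alone. Tests between organs used the spread over all 68 libraries.

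Kidney tubules reclaim most of what the glomerulus filters, and transport is coupled to blood flow, hormones and the time of day. Cells keep time with a transcription loop in which Arntl (Bmal1), Clock and Npas2 activate the period and cryptochrome genes through E-box sequences, and the period and cryptochrome proteins then repress that activation. Nuclear receptors such as Nr1d1 act on Arntl, and the PAR bZIP factors Dbp, Tef and Hlf carry the rhythm to output genes. Handling, anaesthesia and injection are also known to induce immediate early genes, such as the Nr4a and Fos families, which are switched on within minutes to hours and then decline.

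Each of the 6 libraries held between 15785673 and 18356001 counted reads. Levels are CPM, read counts scaled to the size of the library, with TMM factors. Differences are log2 values of 6 h over 2 h, so that a positive value is a higher level at 6 h, with the standard error (SE). Kidney markers were present throughout: over the 17 kidney libraries the proximal tubule transporter Slc34a1 ran from 4692 to 6399 CPM, the thick limb gene Umod from 1827 to 4170 CPM and the water channel gene Aqp2 of the collecting duct from 340 to 1177 CPM. Other cell types varied between single libraries. Replicate 2 at 2 h stood apart from the others, with a mean correlation of 0.9686 against 0.9768 to 0.9812, and its 6 red blood cell markers summed to 1942 CPM, against 299 and 1183 CPM in the other 2 h libraries and 205 to 604 CPM at 6 h. Its 12 hepatocyte markers summed to 1041 CPM, against 153 to 459 CPM in the other 5 libraries. Replicate 1 at 2 h held 232 CPM of 8 B cell markers, against 6.14 to 9.1 CPM in the other 5. The 8 adipocyte markers summed to 274 and 356 CPM in replicates 1 and 2 at 6 h, against 27.7 CPM in replicate 3 and 31.1 to 108 CPM at 2 h. In bulk tissue, fewer cells of a type and less RNA per cell cannot be told apart.

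Between 2 h and 6 h after vehicle, 28 of 15654 genes tested passed an adjusted p of 0.05 in edgeR, which is 0.179% of them. Of these, 22 (0.141%) were higher and 6 (0.0383%) lower at 6 h, and 1149 genes had an unadjusted p under 0.05. The genes that fell included the stress and immediate early genes Nr4a3, Atf3 and Cdkn1a. The genes that rose included the circadian clock genes Cry1 and Tef, genes of mitochondrial transport and nucleotide metabolism (Slc25a42 and Ak4) and a pair of related acetyltransferase genes (Nat8f5 and Nat8f6). The count depended on the libraries and the tool. Leaving out 1 library at a time gave between 8 and 21 calls, DESeq2 gave 124 and limma voom with library quality weights 1177. A fit on the 6 libraries alone called 1 gene and 0 of the 28. Leaving out replicates 1 and 2 at 2 h, the libraries highest in B cell and in red blood cell markers, gave 0 calls, and the replicate kept still held 1183 CPM of red blood cell markers. Leaving out both 6 h libraries high in adipocyte markers also gave 0 calls. In both of these fits the single library left in its group is assumed to vary like the other groups.

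Of the 6 genes that fell, 4 (Nr4a3, Atf3, Cdkn1a and Ethe1) had all 3 of their 2 h libraries above the untreated range. The same 2 h libraries entered the calls, and the share of all genes with such 2 h levels was not computed. Of these 4 only Nr4a3 was called at 2 h against untreated kidneys. Nr4a3, an orphan nuclear receptor of the immediate early class (chromosome 4, 48045153 to 48086447 on mm39), stood at 3.97, 4.01 and 5.06 CPM in the 2 h libraries and at 0.166, 0.752 and 0.553 CPM in the 6 h libraries. Its log2 change was -3.15 ± 0.39 (SE), with adjusted p = 0.00168. The untreated libraries held 0.248, 0.44 and 0.0576 CPM, so the 6 h libraries overlapped the untreated range and the 2 h libraries did not. Atf3, a transcription factor induced by cellular stress (chromosome 1, 190902493 to 190950236), was at 5.43, 4.65 and 4.36 CPM at 2 h and at 0.388, 0.94 and 0.996 CPM at 6 h. It fell by 2.63 ± 0.36 on the log2 scale (adjusted p = 0.00426), from levels above the 1.15 to 1.32 CPM of untreated libraries to levels below them. Cdkn1a, which encodes the cell cycle inhibitor p21 and is induced by p53 and by glucocorticoids (chromosome 17, 29309950 to 29319701), was at 19.2, 21.3 and 21.6 CPM at 2 h and at 7.48, 6.89 and 5.31 CPM at 6 h. That is a log2 change of -1.66 ± 0.20 (adjusted p = 0.00168), and untreated libraries held 7.45, 11.4 and 9.16 CPM.

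Ethe1, a mitochondrial enzyme of sulfide breakdown (chromosome 7, 24286968 to 24308350), was at 83.4, 120 and 101 CPM at 2 h and at 51.6, 50.1 and 45.2 CPM at 6 h. It fell by 1.05 ± 0.14 on the log2 scale (adjusted p = 0.00424), and the untreated libraries, at 66, 75.9 and 74.7 CPM, lay between the 2 groups. Avpr1a, the V1a receptor of vasopressin, was at 14.8, 20.7 and 15.3 CPM at 2 h and at 7.97, 7.27 and 10.6 CPM at 6 h, a log2 change of -0.97 ± 0.18 (adjusted p = 0.0382). Its 2 h libraries lay near the untreated ones, which ran from 13 to 17.8 CPM, and the 6 h libraries were the low group.

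The rise with the smallest p was that of Slc25a42, a mitochondrial carrier for coenzyme A and adenine nucleotides (chromosome 8, 70636990 to 70664955). Its levels were 49.2, 42.7 and 49 CPM at 2 h and 103, 88.7 and 103 CPM at 6 h, a log2 change of 1.07 ± 0.12 (adjusted p = 0.00168). No 6 h library came near the untreated range of 53.6 to 61.8 CPM. Ak4, an adenylate kinase of the mitochondrial matrix (chromosome 4, 101276474 to 101324192), rose from 486, 547 and 482 CPM to 946, 856 and 898 CPM, a log2 change of 0.83 ± 0.12 (adjusted p = 0.00613). Nat8f6, one of a family of N-acetyltransferase 8 genes (chromosome 6, 85785006 to 85797936), rose from 16.2, 23.1 and 22.6 CPM to 57.3, 54.5 and 61.2 CPM, a log2 change of 1.48 ± 0.18 (adjusted p = 0.00168). Nat8f5 (85794200 to 85797954) rose by 1.83 ± 0.34 (adjusted p = 0.0382), from between 1.79 and 4.25 CPM to between 7.3 and 11.7 CPM. The intervals of Nat8f5 and Nat8f6 share 3737 bases on the same strand and the genes are close relatives, so the split of reads between them is uncertain. Angptl7, a secreted angiopoietin-like protein (chromosome 4, 148579640 to 148584917), was at 1.06, 2.04 and 1.74 CPM at 2 h and at 4.98, 4.14 and 5.09 CPM at 6 h, a log2 change of 1.55 ± 0.24 (adjusted p = 0.0117).

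**Figure D1:**
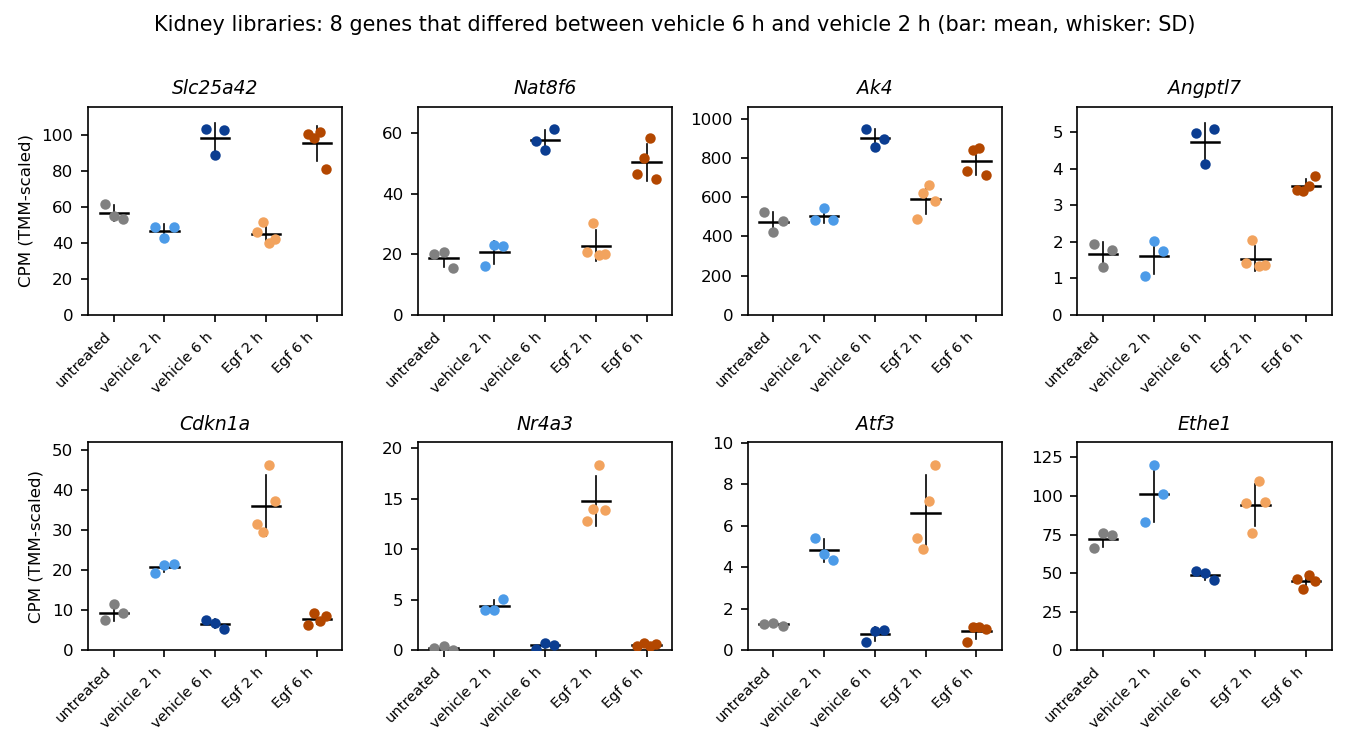
Levels in CPM (linear axis from 0) of 8 genes called between vehicle 6 h and vehicle 2 h, for each of the 17 kidney libraries by group. Points are libraries, bars are means and whiskers are 1 SD. Slc25a42, Nat8f6, Ak4 and Angptl7 are higher in all 3 vehicle 6 h libraries than in all 3 vehicle 2 h libraries, and Cdkn1a, Nr4a3, Atf3 and Ethe1 are lower.

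A receptor and a ligand gene of the Wnt pathway were among the other rises. No list of Wnt genes was drawn up, so other members of the pathway were not counted. Fzd2 and Wnt5b each kept their call in 1 of 6 fits with a library left out. Fzd2, a Wnt receptor, rose from 5.26, 5.54 and 4.88 CPM to 9.36, 8.9 and 9.68 CPM, a log2 change of 0.83 ± 0.14 (adjusted p = 0.0193). The ligand gene Wnt5b rose from 8.62, 9.55 and 11.1 CPM to 22.7, 17.9 and 14.5 CPM, a log2 change of 0.92 ± 0.17 (adjusted p = 0.0382). They differed in where the 2 h level stood: the 2 h libraries of Fzd2 all lay below the untreated range of 9.04 to 11.3 CPM, whereas those of Wnt5b overlapped the untreated range of 9.24 to 11.9 CPM.

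Among membrane and lipid genes, Mylip, a ubiquitin ligase that marks the LDL receptor for degradation, rose from between 29.1 and 38.2 CPM to between 55.3 and 63.4 CPM, a log2 change of 0.82 ± 0.13 (adjusted p = 0.0193). Large2, a glycosyltransferase that extends the sugar chains of dystroglycan, had a log2 change of 0.89 ± 0.16, and the epithelial crosslinking enzyme gene Tgm1 one of 1.02 ± 0.17. The small GTPase genes Rab19 and Rhof rose by 1.35 ± 0.23 and 0.94 ± 0.17, the leucine-rich repeat gene Lrtm2 by 1.26 ± 0.23 and the Polycomb subunit gene Pcgf5 by 0.46 ± 0.08. Adjusted p values of these genes ran up to 0.0382. The kinase gene Stk32c rose from 2.63, 1.46 and 3.31 CPM to 8.86, 7.89 and 5.92 CPM (adjusted p = 0.0352). Apart from Stk32c, the genes of this group had all 2 h libraries below all untreated ones. Rhof, for example, was at 5.76, 3.25 and 4.77 CPM at 2 h against 10.1, 8.31 and 7.6 CPM in untreated libraries. The same 2 h libraries entered the calls, and the share of all genes with such 2 h levels was not computed. None of this group was among the 4 genes called at 2 h against untreated kidneys. Further rises were those of the glutamine transporter gene Slc1a5 (0.61 ± 0.11), the prion protein gene Prnp (0.60 ± 0.11), Gm31105 (1.18 ± 0.19) and C030005K06Rik (1.01 ± 0.17). The last 3 of these were named after their values were seen. Not all of the 28 are reported here by name.

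Of the 28 genes, 26 are protein-coding, and the interval of 9 overlaps another gene tested. Besides the Nat8f pair these are Angptl7 with Mtor, Gm31105 with Gab1, C030005K06Rik with Tnfaip8, Stk32c with Lrrc27, Large2 with Pex16, Rhof with Tmem120b and Wnt5b with Fbxl14, each on opposite strands. The libraries do not keep strand, so strand cannot place a read in the shared stretches. The intervals run from gene start to gene end, and how many counted reads were ambiguous was not tested. None of these 7 partners was called (adjusted p from 0.2448 to 0.9972). On either side of the threshold stood Prnp, with adjusted p = 0.0406, and Slc16a9 (log2 change 0.62 ± 0.12), with adjusted p = 0.0563.

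Of the 28 pathway lists, the core clock list was the one with more than 1 member that rose. Of 18 genes of the core clock and its regulators that were tested, 2 rose (Cry1 and a gene not reported here by name) and 0 fell. Their median log2 change was 0.14. Of 8 clock output genes 1 rose (Tef) and 0 fell, with a median of 0.42. Over all genes tested 0.141% rose and 0.0383% fell, and the median was -0.01. Cry1, a repressor of the clock loop (chromosome 10, 84967564 to 85020928), was at 4.7, 3.95 and 2.73 CPM at 2 h and at 14.7, 9.09 and 9.79 CPM at 6 h, a log2 change of 1.56 ± 0.29 (adjusted p = 0.0382). Tef, a PAR bZIP output factor (chromosome 15, 81686622 to 81711064), rose from 221, 224 and 243 CPM to 408, 392 and 392 CPM, a log2 change of 0.79 ± 0.12 (adjusted p = 0.0119). In both genes the 2 h libraries lay within or near the untreated range and the 6 h libraries lay above it. Neither kept its call each time a library was left out: Cry1 lost it without any one of the 6 libraries and Tef in 3 of 6 cases.

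Promoters are shown for the called clock and clock output genes that had a window, which were Cry1 and Tef. All windows shown hold the E-box CACGTG, the site through which Arntl and its partners act. Each is the RefSeq window of build GRCm38.p6 from 250 bases before to 50 bases after an annotated start, written 5′ to 3′ on the gene's strand, with the E-box in capitals. These coordinates are on an older build than the mm39 positions above. The windows are chr10:85185005-85185304 (minus strand) for Cry1, and chr15:81802423-81802722 and chr15:81811164-81811463 (plus strand) for 2 starts of Tef.
Cry1: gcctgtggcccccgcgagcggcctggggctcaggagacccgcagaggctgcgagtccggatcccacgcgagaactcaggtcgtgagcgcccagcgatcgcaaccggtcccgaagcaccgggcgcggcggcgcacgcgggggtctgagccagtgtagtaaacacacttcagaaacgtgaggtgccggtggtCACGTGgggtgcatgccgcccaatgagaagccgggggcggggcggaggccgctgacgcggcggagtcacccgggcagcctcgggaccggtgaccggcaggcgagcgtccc
Tef, first start: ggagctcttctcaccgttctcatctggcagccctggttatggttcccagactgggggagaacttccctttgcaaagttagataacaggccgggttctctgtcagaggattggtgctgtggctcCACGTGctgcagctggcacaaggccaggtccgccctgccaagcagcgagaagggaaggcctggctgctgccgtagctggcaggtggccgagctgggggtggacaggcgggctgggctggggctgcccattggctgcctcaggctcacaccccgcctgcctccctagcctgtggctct
Tef, second start: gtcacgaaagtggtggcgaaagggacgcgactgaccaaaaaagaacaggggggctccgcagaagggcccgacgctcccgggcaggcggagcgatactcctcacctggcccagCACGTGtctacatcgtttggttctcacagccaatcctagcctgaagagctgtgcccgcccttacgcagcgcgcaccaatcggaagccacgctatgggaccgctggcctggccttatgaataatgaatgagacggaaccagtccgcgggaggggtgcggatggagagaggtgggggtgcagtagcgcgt
The E-box begins 60 bases before the start in Cry1, and 127 and 138 bases before it in the Tef windows. It reads the same on both strands, and 7.15% of all 32851 windows of this length hold it. Of the 28 called genes 21 had a window, with 34 windows in all, and 4 windows (11.8%) of 3 genes held an E-box: Ak4, Cry1 and Tef. The D-box TTATGTAA, the site of the PAR bZIP factors, was in 2 of the 34 windows (5.88%), those of Prnp and Wnt5b, and in 0.938% of all windows on either strand. The nuclear receptor core site AGGTCA was in 3 of the 34 (8.82%, in Ak4, Nat8f5 and Tgm1) and in 16.3% of all windows. The cyclic AMP response element TGACGTCA was in 0 of the 34 and in 1.79% of all windows. Of the 26 clock and clock output genes tested, 20 had a window, and 6 of their 28 windows (21.4%) held an E-box (in Bhlhe41, Ciart, Cry1, Per1 and Tef). A match is a string of letters in the window and not evidence of binding.

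Clock genes that missed the threshold had values of both signs, several as large as those of the called ones. Arntl, the activator of the loop, stood at 5.59, 3.69 and 6.57 CPM at 2 h and at 0.664, 0.627 and 1.44 CPM at 6 h, a log2 change of -2.52 ± 0.50 with adjusted p = 0.0574. Its partner gene Npas2 had a log2 change of -2.17 ± 0.61 (adjusted p = 0.256), and Clock, the other partner, one of -0.14 ± 0.12 (adjusted p = 0.863). Positive values were found for the repressor genes: Cry2 had 1.00 ± 0.22 (adjusted p = 0.103), Per1 1.46 ± 0.34 (adjusted p = 0.128), and Per3 1.68 ± 0.41 (adjusted p = 0.159). Per2 was at 8.95, 9.1 and 7.85 CPM at 2 h and at 18.8, 16.5 and 24.2 CPM at 6 h (adjusted p = 0.189). Per1 was at 13.3, 17.5 and 22.6 CPM at 2 h and at 49.6, 46.9 and 49.9 CPM at 6 h. Ciart, a further repressor, had 1.76 ± 0.43 (adjusted p = 0.154), and Nr1d1, the receptor that represses Arntl, had -1.04 ± 0.23 (adjusted p = 0.108). Among output genes Dbp was at 59.1, 79.9 and 44.9 CPM at 2 h and at 169, 176 and 165 CPM at 6 h, a log2 change of 1.47 ± 0.34 (adjusted p = 0.118), and Hlf had 0.50 ± 0.13 (adjusted p = 0.183). Values near 0 belonged to Csnk1d, Csnk1e, Bhlhe40 and Noct, from -0.09 to 0.10.

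The libraries of the 2 times did not overlap in 7 of the 18 core clock genes with the higher level at 6 h (among them Ciart, Cry1, Cry2, Per1, Per2 and Per3) and in 3 with the lower level (Arntl, Npas2 and Nr1d1). They did not overlap in 4 of the 8 output genes, all higher at 6 h (Dbp, Hlf, Nampt and Tef). Over all genes tested, 5.31% had groups that did not overlap with the higher level at 6 h and 4.57% with the lower level. Beside these shifts, the 2 h library rich in red blood cell markers (replicate 2) held the highest 2 h value of Dbp and the lowest of Arntl and Nr1d1. With the summed red blood cell markers as a covariate, Nr1d1 passed (log2 change -1.26, adjusted p = 0.0294) and Tef kept its call (0.81, adjusted p = 0.0166), while Cry1, at 1.53, did not (adjusted p = 0.0772). With the adipocyte markers as a covariate neither Tef (0.78, adjusted p = 0.0594) nor Cry1 (1.42, adjusted p = 0.194) passed, and Nr1d1 did not pass (-1.01, adjusted p = 0.28).

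**Figure D2:**
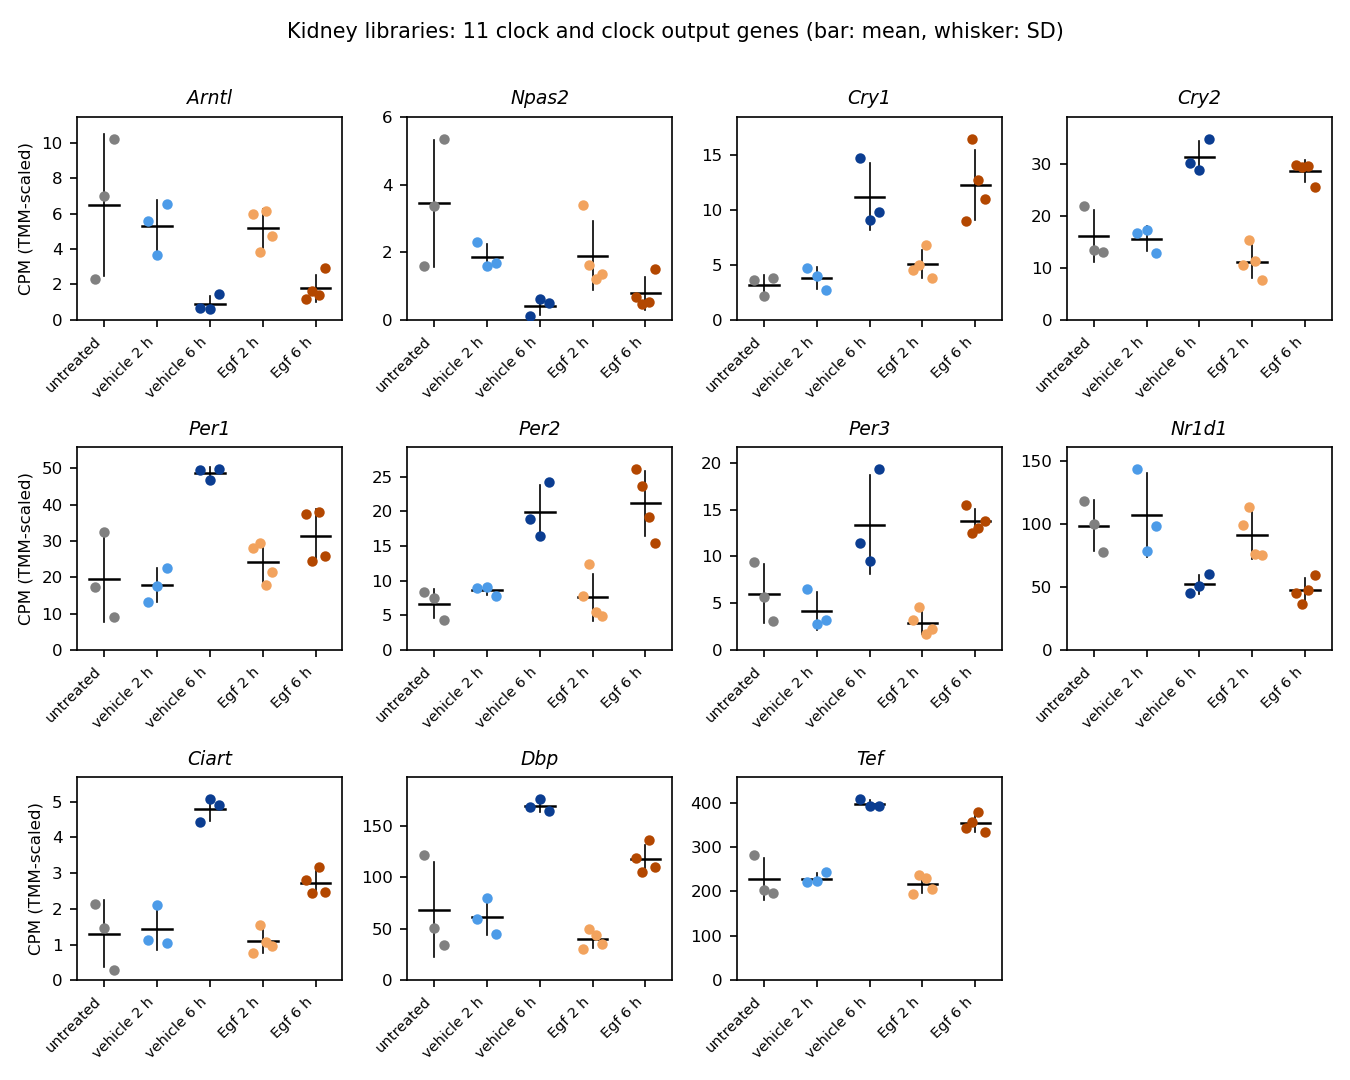
Levels in CPM (linear axis from 0) of 11 clock and clock output genes in the 17 kidney libraries by group. Points are libraries, bars are means and whiskers are 1 SD. All panels show genes in which the 3 vehicle 6 h libraries do not overlap the 3 vehicle 2 h libraries. Other clock genes tested, such as Clock, Nr1d2 and Wee1, are not shown, and in Clock and Wee1 the groups overlap. Over all genes tested, 5.31% did not overlap with the higher level at 6 h and 4.57% with the lower level. Of these 11 only Cry1 and Tef passed an adjusted p of 0.05 in that comparison.

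Most immediate early genes had a lower mean level at 6 h. Of 27 members tested, 2 fell (Nr4a3 and Atf3) and 0 rose, the median log2 change was -0.30, and 21 of the 27 had a negative value. Over all genes tested 0.0383% fell and 0.141% rose, and 8183 of 15654 had a negative value. In 13 of the 27 the groups did not overlap with the lower level at 6 h, against 4.57% of all genes, and in 1 (Zfp36) with the higher level. Below the threshold, the AP-1 gene Fosb was at 1.96, 1.21 and 2.67 CPM at 2 h and at 0.0554, 0.313 and 0.277 CPM at 6 h, a log2 change of -3.16 ± 0.83 (adjusted p = 0.202). Maff, a small Maf factor, had -1.12 ± 0.27 (adjusted p = 0.147), Fos had -2.67 ± 0.84 (adjusted p = 0.345) and Egr1 had -1.43 ± 0.52 (adjusted p = 0.494). Jun, Ier2 and Arc were between -0.02 and 0.03.

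Of 28 glucocorticoid-induced genes tested, 1 fell (Cdkn1a) and 0 rose, against 0.0383% and 0.141% of all genes tested. The median log2 change of the list was 0.03. Other members of this list had values of both signs. Zbtb16, a transcription factor strongly induced by glucocorticoids, was at 16.1, 5.6 and 10.9 CPM at 2 h, at 2.27, 1.5 and 3.21 CPM at 6 h and at 1.32 to 1.89 CPM in untreated libraries, a log2 change of -2.21 ± 0.56 (adjusted p = 0.189). Mfsd2a, a transporter of lysophospholipids, was at 37.1, 14.6 and 32.4 CPM at 2 h and at 85, 50.5 and 66.2 CPM at 6 h, a log2 change of 1.26 ± 0.25 (adjusted p = 0.061). Cdkn1a is also a member of the growth and tubule injury lists. It was the one called gene in each of them (1 of 16 and 1 of 17, against 0.0383% of all genes that fell).

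Transport and metabolism are the main work of the tubule. Of 23 amino acid transporters 1 rose, against 0.141% of all genes tested, and it was Slc1a5, from 37.4, 36.5 and 32.3 CPM to 59.1, 58.6 and 43.9 CPM, with a list median of 0.04. Slc1a4, its relative, had 0.65 ± 0.16 (adjusted p = 0.183), and Slc3a2, the heavy chain shared by several amino acid exchangers, had -0.39 ± 0.11 (adjusted p = 0.218). None of the 22 organic ion and drug transporters, 15 aldosterone and sodium transport genes, 20 renin and vasoactive genes, 26 fatty acid oxidation genes, 22 glucose and insulin genes or 23 cholesterol genes was called, where 0.179% of all genes tested were. The medians of these lists lay between -0.03 and 0.09. The largest median among pathway lists with no called gene was that of 20 cell cycle genes, at 0.32 with 17 positive values. Among 13 respiratory chain genes of the mitochondrial genome the median was -0.26 with 12 negative values. Mitochondrial genes took 4.86% to 7.08% of reads at 2 h and 4.54% to 4.93% at 6 h, with the highest share in the 2 h library rich in red blood cell markers, and the part of that library in the median was not tested.

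None of the 20 lists of cell type markers held a called gene, where 0.179% of all genes tested were called. Lists this short would seldom hold a called gene at that share. The 18 proximal tubule markers had a median log2 change of 0.03 and the 10 endothelial markers -0.01. Markers of the distal convoluted and connecting tubule, which reabsorb sodium, calcium and magnesium, were lower at 6 h in 7 of 8 cases with a median of -0.50, and their summed level ran from 2484 to 3178 CPM at 2 h and from 1779 to 2186 CPM at 6 h. Larger medians were found for cell types whose markers were uneven within a group, as given above. They were 2.27 for 8 adipocyte markers, -1.18 for 11 hepatocyte markers, -1.44 for 6 red blood cell markers and -3.53 for 4 B cell markers. Larger medians were also found where few markers were tested: -0.70 for 6 adrenal, -0.61 for 3 lung epithelium and -1.22 for 1 neutrophil marker. In the 6 h library without raised adipocyte markers (replicate 3), Slc25a42, Nat8f6 and Angptl7 were as high as in the other 6 h libraries, at 103, 61.2 and 5.09 CPM. Other rises were lowest in that library: Nat8f5 was at 7.3 CPM against 11.6 and 11.7, Stk32c at 5.92 against 8.86 and 7.89, Wnt5b at 14.5 against 22.7 and 17.9 and Slc1a5 at 43.9 against 59.1 and 58.6. Tef and Pcgf5 were also lowest there, by smaller margins. With the summed adipocyte markers as a covariate 10 genes were called, 9 of them among the 28, and with the red blood cell markers 13 were called, 10 of them among the 28.

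**Figure D3:**
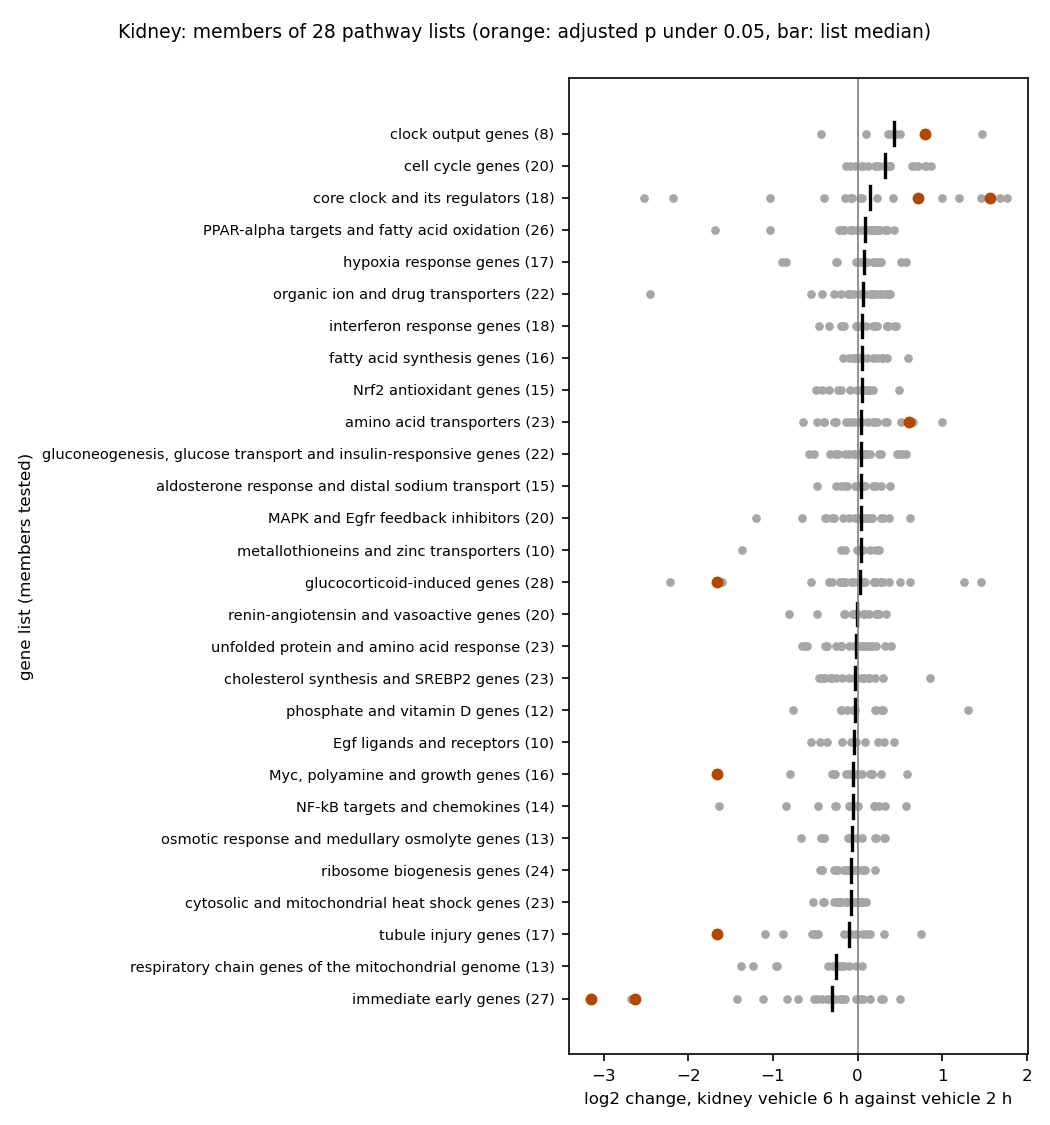
Log2 change from vehicle 2 h to vehicle 6 h (x axis) of every tested member of 28 pathway lists (y axis, number tested in brackets), with list medians as bars. Orange points passed an adjusted p of 0.05, and Cdkn1a appears in 3 lists. The immediate early list has the lowest median (-0.30) and the clock output list the highest (0.42).

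The Egf libraries gave the same interval in 8 other kidney libraries, none of them shared with the vehicle comparison. There, 687 genes (4.39%) were higher and 422 (2.7%) lower at 6 h than at 2 h. Of the 22 genes that rose after vehicle 18 (81.8%) also rose after Egf, and of the 6 that fell 5 (83.3%) also fell. The sign was shared by 27 of the 28 genes. Adrenal gland markers varied between these libraries: the total of 14 such markers was 25.7, 4.03, 68.5 and 30.6 CPM at 2 h after Egf, and 3.23 to 4.73 CPM in the other 13 kidney libraries. With this total as a covariate the 1109 Egf calls became 57, and 4 of the 22 rises (Fzd2, Large2, Rab19 and Slc25a42) and 4 of the 6 falls (Atf3, Cdkn1a, Ethe1 and Nr4a3) were called, against 0.166% and 0.198% of all genes. The adrenal total was raised only in Egf libraries at 2 h, so this covariate and the Egf time contrast cannot be fully told apart. Values below are without the covariate unless it is named. Cry1 was at 4.56, 5.01, 6.84 and 3.82 CPM in the Egf libraries at 2 h and at 8.98, 16.5, 12.7 and 11 CPM at 6 h, a log2 change of 1.28 ± 0.25 (adjusted p = 0.00644). Slc25a42 rose by 1.09 ± 0.10 (adjusted p = 3.26e-05) and Tef by 0.70 ± 0.11 (adjusted p = 0.00138). Among the falls, Nr4a3 went from 12.8, 13.9, 18.4 and 13.9 CPM to 0.441, 0.682, 0.375 and 0.616 CPM, a log2 change of -4.79 ± 0.33 (adjusted p = 7.8e-07), and Cdkn1a had -2.19 ± 0.18 (adjusted p = 4.25e-06).

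The rises not called in the Egf libraries were those of Mylip (0.30 ± 0.11), Tgm1 (0.15 ± 0.14), Pcgf5 (0.21 ± 0.07) and Wnt5b (0.46 ± 0.15). The test of the difference between the Egf and vehicle changes passed for 0 of the 28. Over all genes it called 3 (0.0192%), each with a lower Egf value: Tmem252 (-2.19), the Egr corepressor gene Nab2 (-1.29) and the Egfr inhibitor gene Errfi1 (-1.18). Their vehicle changes were -0.17 ± 0.18, -0.30 ± 0.12 and 0.30 ± 0.12, and none of these 3 vehicle changes passed. With the adrenal covariate all 3 differences lost their call, at -2.005 for Tmem252 and -1.28 for Errfi1 (adjusted p = 0.0546 for both) and -1.22 for Nab2 (adjusted p = 0.0707). DESeq2 called 51 differences and limma voom 247. The Egf interval also called several clock genes that had missed the threshold after vehicle: Arntl (-1.54, adjusted p = 0.032), Cry2 (1.35, adjusted p = 0.00103), Nr1d1 (-0.94, adjusted p = 0.0113), Per2 (1.47, adjusted p = 0.00453), Per3 (2.22, adjusted p = 0.00289) and Dbp (1.56, adjusted p = 0.00545). None of these 6 passed with the adrenal covariate (adjusted p from 0.0621 for Nr1d1 to 0.53 for Arntl), nor did Cry1 (adjusted p = 0.122) or Tef (adjusted p = 0.107). Their log2 changes kept their sign with it. The values were -1.10 for Arntl, 1.05 for Cry2, -1.22 for Nr1d1, 0.87 for Per2 and 1.65 for Per3. Dbp had 1.38, Cry1 1.45 and Tef 0.64. Per1, at 0.38 ± 0.29 after Egf and 1.46 ± 0.34 after vehicle, was not called in either.

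**Figure D4:**
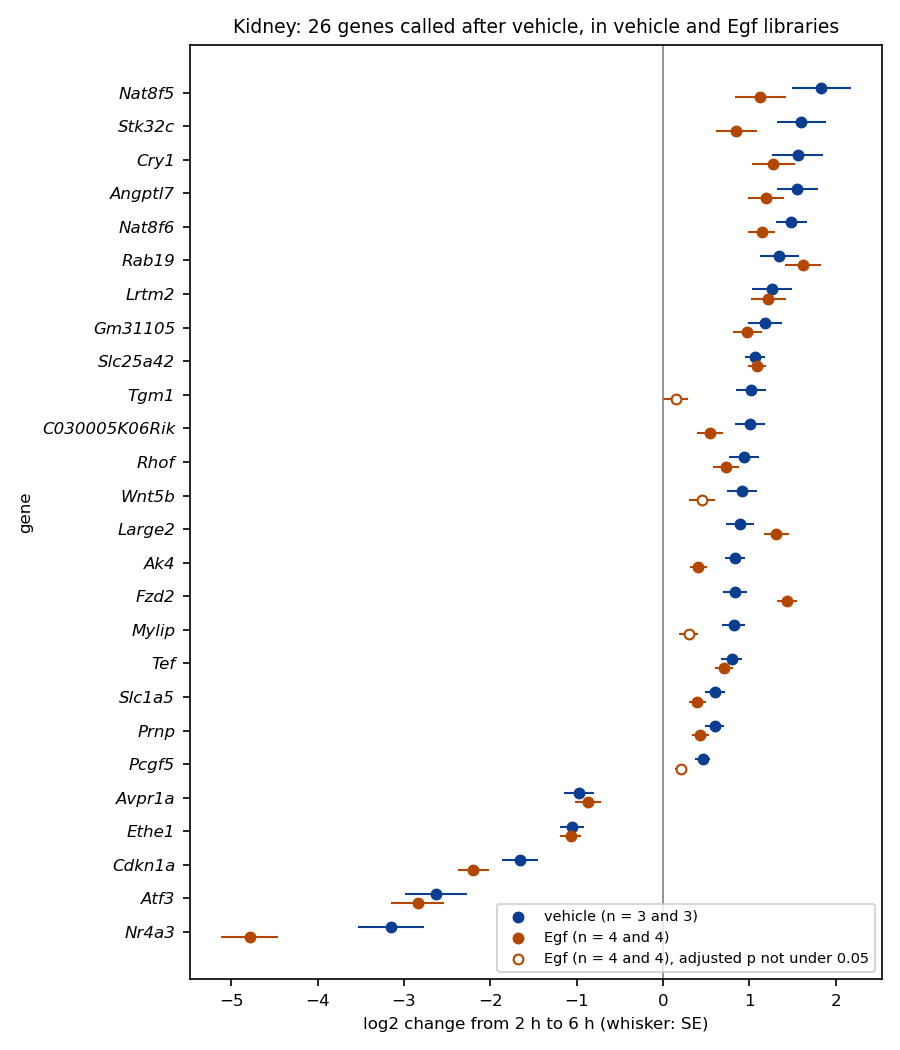
Log2 change from 2 h to 6 h (x axis) in vehicle and Egf kidneys for 26 of the 28 genes called after vehicle (y axis), with whiskers of 1 SE. Open points did not pass an adjusted p of 0.05. Vehicle and Egf values have the same sign for all 26 genes shown, and for 27 of all 28 called genes.

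Each of the 2 times was also set beside untreated kidneys, whose clock time of collection is not given either. Clock genes were uneven among the untreated libraries. Arntl was at 2.29, 6.99 and 10.25 CPM and Dbp at 121, 50.4 and 34.5 CPM in untreated replicates 1, 2 and 3. In both genes, untreated replicate 1 was nearest to the vehicle 6 h levels. The comparisons with untreated kidneys share libraries with the one above, so their values are given side by side only. Vehicle libraries at 2 h differed from untreated ones in 4 genes (0.0256%): Nr4a3 (4.04, adjusted p = 0.00064), the endoplasmic reticulum stress gene Herpud1 (0.99, adjusted p = 0.00242), Marcks (-1.13, adjusted p = 0.00585) and Fzd2 (-0.92, adjusted p = 0.016). Marcks and Fzd2 lost their call without vehicle 2 h replicate 2 or 3, without untreated replicate 1 or 3, and with a replicate block (2 calls in each case), and a fit of these groups alone called 0 genes. Without vehicle 2 h replicate 1 the count was 12. At 6 h, 33 genes (0.211%) differed from untreated kidneys, but 1 did without vehicle 6 h replicate 1, 7 without untreated replicate 2, 14 without untreated replicate 3 and 9 in a fit of these groups alone. For Slc25a42 the differences from untreated were -0.28 at 2 h (adjusted p = 0.343) and 0.79 at 6 h (adjusted p = 0.00825), and for Nat8f6 they were 0.14 (adjusted p = 0.746) and 1.62 (adjusted p = 0.0018). For Cry1 they were 0.26 (adjusted p = 0.711) and 1.82 (adjusted p = 0.0129), and for Arntl -0.29 (adjusted p = 0.778) and -2.81 (adjusted p = 0.0237). Cdkn1a showed the other order, with 1.14 at 2 h (adjusted p = 0.0723) and -0.51 at 6 h (adjusted p = 0.561), as did Nr4a3, with 0.89 at 6 h (adjusted p = 0.805). Fzd2 stood at -0.09 at 6 h (adjusted p = 0.909).

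Liver and lung had the same vehicle interval, with 3 libraries at each time, and a joint fit of the 68 libraries gave the test of whether the kidney change differed from theirs. The liver change was called in 581 genes (3.1%) that were higher at 6 h and 232 (1.24%) that were lower, and the lung change in 22 (0.117%) and 28 (0.149%). Of the 22 genes that rose in kidney 5 also rose in liver (Gm31105, Pcgf5, Tef, Tgm1 and Wnt5b) and 4 in lung (among them Cry1, Lrtm2 and Tef). Of the 6 that fell in kidney, Atf3, Cdkn1a and Ethe1 also fell in liver and Cdkn1a and Nr4a3 in lung. Cdkn1a was called as lower in all 3 organs within the joint fit. Tef was called in liver (1.81) and lung (1.22) there, while its kidney value, called in the kidney fit, was 0.81 with adjusted p = 0.141 in the joint one. The labels do not tie organs to animals, so kidneys, livers and lungs may come from the same mice.

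Kidney and liver changes differed in 66 of 18736 genes (0.352%), 4 of them among the 28. Cdkn1a was at 28, 42 and 67.6 CPM in liver at 2 h and at 2.7, 1.78 and 1.04 CPM at 6 h, a log2 change of -4.63, and the kidney change was higher than that of liver by 2.99 (adjusted p = 0.000286). Mylip and Prnp rose in kidney, with liver values of -0.38 and -0.37 that did not pass, and the differences were 1.21 (adjusted p = 0.0053) and 0.98 (adjusted p = 0.00491). Gm31105 had the larger change in liver, with a difference of -1.95 (adjusted p = 0.0398). Wee1, a kinase gene of the cell cycle under clock control, went from 7.17, 8.69 and 7.04 CPM to 48.5, 35.2 and 48.6 CPM in liver and from 21.6, 35.4 and 26.8 CPM to 41.4, 31 and 36 CPM in kidney, a difference of -2.16 (adjusted p = 6.16e-05). Kidney and lung changes differed in 0 of 18736 genes (0%) in edgeR, with 628 at an unadjusted p under 0.05 and 865 called by limma voom. The smallest adjusted p there was 0.161, shared by Csnk1g3, Limk1 and the glucocorticoid-induced gene Fkbp5 (kidney minus lung 1.74). These 3 genes were not called.

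**Figure D5:**
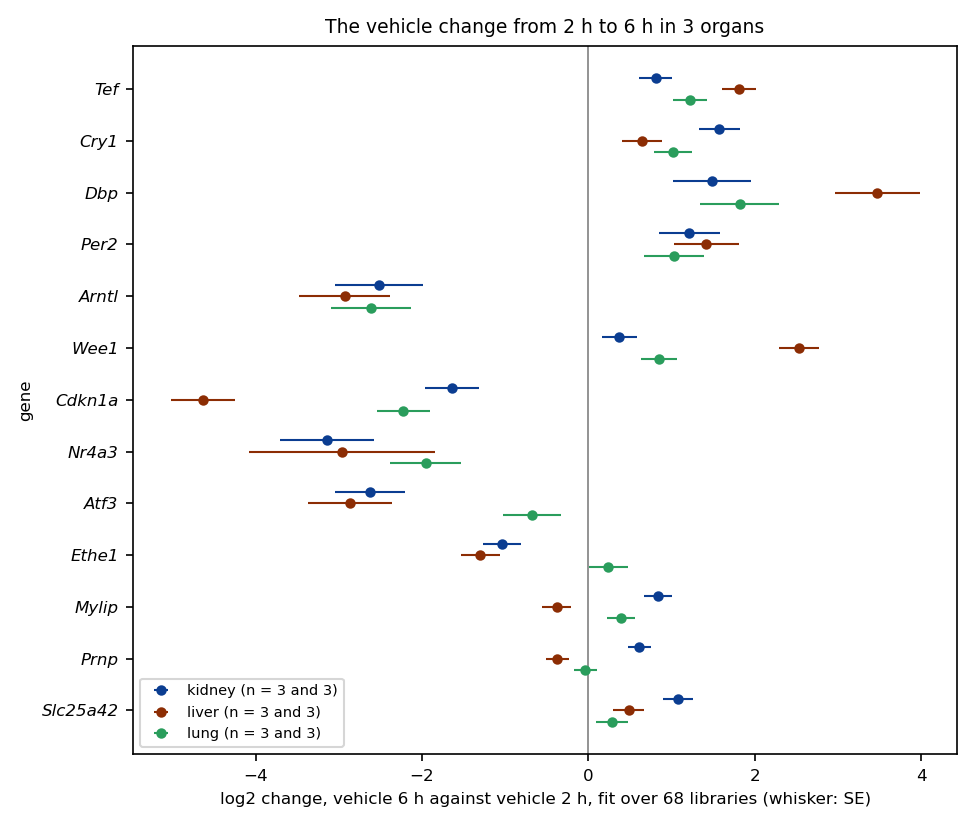
Log2 change from vehicle 2 h to vehicle 6 h (x axis) of 13 genes in kidney, liver and lung, from one fit over 68 libraries, with whiskers of 1 SE. Cdkn1a lies at -4.63 in liver, below its values in kidney and lung, and Arntl is negative and Tef positive in all 3 organs.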

How the data were processed

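RNA was sequenced from polyadenylated transcripts of heart, lung, kidney and liver. The authors deposited unnormalized read counts of 56748 genes, and per the submitters' processing notes the authors used HISAT2 2.0.5, featureCounts 1.5.0-p3 and build mm39. How multi-mapping reads were counted is not given in those notes. Library preparation was non-directional per the labels' protocols.

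For the 17 kidney libraries, genes passing filterByExpr were normalized with TMM and fitted with edgeR 4.0.16 in R 4.3.3 (robust quasi-likelihood F test, 5 groups, 15654 genes). The Benjamini-Hochberg adjustment covered the whole table, and a call is an adjusted p under 0.05. A second fit covered 68 libraries and 18736 genes. Sums of marker levels use CPM from library totals, with no TMM factor. DESeq2 1.42.0 and limma 3.58.1 were alternatives. Every limma voom run used quality weights, which give less weight to more variable libraries. In kidney edgeR's common biological variation was 0.1921.

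Named genes were up to 12 rises and 12 falls of largest change and 6 of each by smallest p, with at least 1 CPM, no overlap and an informative symbol, 4 members of each list by p, all clock genes, and 8 genes of each other comparison by p, of which the called or most relevant are printed. Jun, Ier2, Arc, Fos, Egr1, Slc16a9, Prnp, Gm31105, C030005K06Rik and Gapdh were chosen after their values were seen. Members, the 28 pathway and 20 marker lists, and tests were chosen with earlier results of these data known, and no list was tested. Some genes are not reported here by name.

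On simulated counts for kidney vehicle 6 h against 2 h (15508 genes) the procedure called 8.06%, 58.6% and 89.7% of genes changed 1.5-fold, 2-fold and 4-fold. For the kidney minus liver test (18581 genes) it called fewer, 3.03%, 24.6% and 56.2%. The kidney minus lung test was not simulated.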

Additional observations from a re-analysis of the deposited data

Results flagged for a closer look

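In the Egf groups of 4 kidney libraries, 48 of the called genes and clock genes were searched for a library far from the other 3. Of 96 gene and group pairs 4 were found, and chance gives about 1 in 20. At 2 h after Egf, replicate 2 was far above the others for Angptl7 (2.04 CPM against 1.34 to 1.43) and Nat8f6 (30.4 CPM against 19.7 to 20.6). At 6 h after Egf, replicate 1 was far below the others for Atf3 (0.386 CPM against 1.01 to 1.14) and replicate 4 for Cry2 (25.5 CPM against 29.5 to 29.8).

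The change from 2 h to 6 h differed between Egf and vehicle, by the test of the difference in edgeR, for Tmem252 (-2.19), Nab2 (-1.29) and Errfi1 (-1.18). All 3 lost their call with adrenal markers as a covariate. The 6 h against 2 h change differed between kidney and liver after vehicle for Cdkn1a (2.99), Mylip (1.21), Prnp (0.98), Clpx (1.48) and Denn2b (1.96), each with the higher value in kidney. The lower value was in kidney for Gm31105 (-1.95), Wee1 (-2.16), Srm (-1.29), Marveld1 (-1.22), Slc5a6 (-1.51), Sipa1l2 (-2.39) and Fzd4 (-1.07).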

How the results depend on the processing

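None of the 28 genes reversed under any alternative run, and 7 (Nat8f6, Slc25a42, Ak4, Nr4a3, Atf3, Cdkn1a and Ethe1) kept their call whichever of the 6 libraries was left out. The fit of the 6 libraries alone called 1 gene, Gapdh, and 0 of the 28, which had adjusted p values of 0.0627 or more in it. The number of calls between vehicle 6 h and 2 h (28) was 17 with a replicate block, 16 of them shared, 124 in DESeq2, 1177 in limma voom, 10 with the adipocyte and 13 with the red blood cell markers as covariate, and 0 without replicates 1 and 2 of either time. The last 4 settings were added after the data were seen. Leaving out 1 library gave 8 to 21 calls: 13, 9 and 12 without replicates 1, 2 and 3 at 2 h, and 8 without replicate 1 at 6 h.

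The replicate numbers were not taken to pair mice: correlations of same-numbered vehicle libraries were -0.15, 0.22 and 0.08. With the block, calls at vehicle 2 h against untreated went from 4 to 2.

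The other counts moved as follows. Egf 6 h against 2 h (1109) gave 57 with adrenal markers as covariate, 1703 in limma voom, 1890 in DESeq2, 566 on its own groups and 466 (without Egf 2 h replicate 4) to 1677 (without Egf 2 h replicate 2) with a library left out. Egf minus vehicle (3) gave 5 with no filter, 0 with adrenal markers, 247 in limma voom, 51 in DESeq2 and 3 to 10 (without Egf 2 h replicate 3) with a library left out. Vehicle 2 h against untreated (4) gave 2843 in limma voom, 146 in DESeq2, 0 on its own groups and 2 to 12. Vehicle 6 h against untreated (33) gave 1371, 140, 9 and 1 (without vehicle 6 h replicate 1) to 32. Kidney minus liver (66) gave 43 with no filter, 778 in limma voom, 18 on its own groups and 36 to 78. Kidney minus lung (0) gave 865 in limma voom.

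Signs reversed only for genes that were not called, and those reported here follow. In limma voom these were Csnk1d (-0.027) and Srxn1 (0.023). With 1 library left out, values ran from -0.28 to 0.15 for Bhlhe40, -1.16 to 0.11 for Nos1, -0.29 to 0.0085 for Srxn1, -0.19 to 0.23 for Noct, -0.0095 to 0.70 for Gclc, -0.026 to 0.56 for Mcm5, -0.21 to 0.013 for Csnk1e and -0.041 to 0.11 for Csnk1d. Without replicates 1 and 2 at 2 h they were Noct (-0.15) and Bhlhe41 (0.14), and without replicates 1 and 2 at 6 h Mcm5 (-0.18), Noct (-0.20), Bhlhe41 (0.049), Csnk1e (0.18), Bhlhe40 (0.16) and Nrg1 (0.18). With the adipocyte covariate they were Noct (-0.025) and Csnk1e (0.031), and with the red blood cell covariate Rora (-0.075), Csnk1d (-0.013), Mlxipl (-0.039) and Elovl6 (-0.14). The cause of these shifts was not tested.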

Other observations

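Gapdh, a glycolytic enzyme gene often used as a reference and known for many near-identical pseudogenes, was the gene with the largest positive log2 change between vehicle 6 h and 2 h, at 6.23 ± 1.58, and did not pass (adjusted p = 0.191). Its read counts were 22, 35 and 30 at 2 h and 3350, 1688 and 1788 at 6 h. The untreated libraries held 22, 26 and 22 reads, the Egf libraries 41, 21, 13 and 25 at 2 h and 31, 32, 2712 and 24 at 6 h. Levels also differed widely within the other organs, from 1.93 to 359 CPM of library totals in heart, 0.117 to 35.8 in lung and 0.116 to 77.5 in liver. The cause of these differences between libraries was not tested.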
